A study of Mus musculus with 13 samples.

Results

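The mouse retina expresses Gpnmb, which encodes glycoprotein nonmetastatic melanoma protein B, and its samples can also carry transcripts of pigment cells. Gpnmb was described here together with 9 genes of melanocytes and of the retinal pigment epithelium (RPE): Tyr, Tyrp1, Dct, Pmel, Mlana, Slc45a2, Mitf, Ttr and Best1. The members were the genes with a probe set annotated with exactly 1 of these symbols, which gave 11 probe sets for 10 of the 19937 genes measured, with 2 probe sets for Mitf and 1 for each other gene. The set was chosen by measured values, since Gpnmb was selected on its high log2 intensity in the KO light arrays described here, and the other members by name. For that reason the values of all members in every comparison that contains the KO light arrays are given as a description with no p-value. Counts of calls in these comparisons stand only beside the share of all genes, and nothing is read from them.

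Each mouse gave 1 GeneChip Mouse Gene 1.0 ST array, hybridized with RNA from its pooled pair of retinae. The 13 arrays comprised 3 of light-exposed PGC-1α knockout mice (KO light), 3 of light-exposed wild types (WT light), 3 of KO mice kept in the dark (KO dark) and 4 of wild types kept in the dark (WT dark). KO mice lacked PGC-1α, a coactivator of mitochondrial genes encoded by Ppargc1a, in all tissues on a C57BL/6 background, and the wild types were C57BL/6 NRj. Per the methods, all mice were young adults that had been dark adapted, and light exposure was 15000 lux for 2 h with the pupils dilated, followed by a night of recovery in darkness. According to the labels, animals exposed to light were male and those kept in the dark female, with a male as WT dark replicate 4, whereas the methods name male mice only. Light and sex could therefore not be told apart in the 12 arrays compared. The way the retinae were separated from the RPE was not given in the sources used here.

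Several arrays stood apart. Over all genes the array labelled WT dark replicate 4 correlated at a mean r of 0.997 with the KO light arrays other than replicate 3, and at 0.989 with the other WT dark arrays. The array labelled KO light replicate 3 correlated at a mean r of 0.992 with the other KO light arrays and at 0.997 with the WT dark arrays. Main values follow the labels with WT dark replicate 4 left out of the fit, and values "with the exchanged arrays" use that array as a KO light array and leave out KO light replicate 3. KO light replicate 2 stood apart in the pigment genes themselves, as described below. Ppargc1a had log2 intensities of 10.02, 10.25 and 9.96 in KO light, 9.96, 9.85 and 9.99 in WT light, 10.40, 10.19 and 10.26 in KO dark and 10.03, 10.01 and 10.02 in WT dark. Its level was thus not lower in KO arrays, and it did not check the labels, because the place of its probes relative to the deleted part was not given in the sources used here. Sag, the rod arrestin that marks photoreceptors, lay between 12.52 and 12.73 in all 13 arrays. Of 16 neural retina genes, Sag included, 14 had a lower mean in KO light than in WT light and 2 a higher one. Their average difference from each gene's mean over the arrays compared was -0.34, -0.12 and 0.02 in KO light. It was -0.39 in the array labelled WT dark replicate 4 and between -0.03 and 0.10 in the others. Sag alone therefore did not show that the arrays held equal shares of photoreceptor RNA.

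Melanin is made in melanosomes, lysosome-related organelles of melanocytes and of pigment epithelia. Tyr encodes tyrosinase, the rate-limiting enzyme of melanin synthesis, and Tyrp1 and Dct encode its related enzymes. Pmel forms the fibrils on which melanin is laid down, Mlana is a melanosomal protein required for Pmel maturation, and Slc45a2 is a melanosomal transporter. Mitf is the transcription factor that drives these genes. In the eye, melanocytes lie in the choroid, iris and ciliary body, whereas the RPE is the pigmented epithelium behind the photoreceptors that phagocytoses their shed outer segments and regenerates the visual chromophore. Ttr, the carrier of thyroid hormone and retinol-binding protein, and Best1, a chloride channel of the basolateral membrane, are expressed by the RPE. Gpnmb is a transmembrane glycoprotein related to Pmel, found in melanosomes and RPE and also in phagocytes and injured glia.

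Promoter sequences from RefSeq on mouse assembly GRCm38.p6 were at hand for 6 of the 10 members. They span 250 bases before to 50 bases after the annotated start. The motif GTCATGTGCT, the M-box that Mitf is known to bind, was read from the Tyrp1 promoter and searched on both strands together with CATGTG, the core it contains. GTCATGTGCT occurred in 61 of 32851 promoters (0.186%), and these included Tyrp1, Tyr and Dct. The shorter CATGTG occurred in 4650 promoters (14.2%) and, among the 6 members, in the same 3 genes. The promoters of these 3 melanin enzymes are shown because their levels moved together between arrays, and that of Gpnmb because it holds neither motif in this window. They read 5′ to 3′ on the strand of the gene, with CATGTG and its reverse complement CACATG in capitals. The Tyrp1 promoter lies at chr4:80833963-80834262 on the plus strand, with the motif 46 bases before the start. That of Dct lies at chr14:118052197-118052496 on the minus strand, with the motif 150 bases before the start and a reverse copy of the core 232 bases before it. That of Tyr lies at chr7:87493463-87493762 on the minus strand, with the motif 21 bases before the start. The Gpnmb promoter lies at chr6:49036268-49036567 on the plus strand.
Tyrp1: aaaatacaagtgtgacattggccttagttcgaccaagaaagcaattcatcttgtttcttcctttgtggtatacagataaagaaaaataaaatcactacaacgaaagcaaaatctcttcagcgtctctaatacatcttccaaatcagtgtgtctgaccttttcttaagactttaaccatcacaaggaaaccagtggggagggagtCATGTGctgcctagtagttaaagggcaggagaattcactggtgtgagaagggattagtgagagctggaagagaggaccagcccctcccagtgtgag
Dct: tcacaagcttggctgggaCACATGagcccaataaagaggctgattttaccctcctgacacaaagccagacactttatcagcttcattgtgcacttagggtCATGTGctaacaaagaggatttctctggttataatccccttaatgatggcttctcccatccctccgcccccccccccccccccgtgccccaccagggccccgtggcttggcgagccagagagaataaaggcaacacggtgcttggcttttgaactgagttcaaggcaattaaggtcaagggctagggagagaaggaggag
Tyr: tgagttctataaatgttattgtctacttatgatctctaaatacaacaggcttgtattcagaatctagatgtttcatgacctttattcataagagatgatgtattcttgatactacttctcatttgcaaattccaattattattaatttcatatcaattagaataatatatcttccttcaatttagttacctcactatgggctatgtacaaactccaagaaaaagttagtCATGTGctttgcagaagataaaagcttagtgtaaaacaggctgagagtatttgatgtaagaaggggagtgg
Gpnmb: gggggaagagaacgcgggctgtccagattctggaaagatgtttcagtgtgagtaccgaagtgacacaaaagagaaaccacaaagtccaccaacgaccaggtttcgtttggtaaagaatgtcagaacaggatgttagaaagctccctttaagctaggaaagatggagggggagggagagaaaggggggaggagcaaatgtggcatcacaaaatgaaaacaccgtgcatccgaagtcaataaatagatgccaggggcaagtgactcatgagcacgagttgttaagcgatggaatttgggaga
A match is a description of letters and not of a bound site.

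Gpnmb, the gene for which the set was assembled, was highest in KO light and lowest in WT light. Its log2 intensity was 9.40, 10.22 and 8.81 in KO light replicates 1 to 3, 7.40, 7.38 and 7.73 in WT light, 8.17, 8.25 and 8.12 in KO dark, and 7.83, 8.20 and 8.16 in WT dark. Every KO light array lay above every array of the other 3 groups, every WT light array lay below every dark array, and the 2 dark groups overlapped. The array labelled WT dark replicate 4 had 9.89, within the range of the KO light arrays and outside that of the other WT dark arrays. KO light averaged 9.47 ± 0.71 against 7.50 ± 0.19 in WT light (SD, n = 3 each), a log2 difference of 1.97 (SE 0.26) or 3.92-fold in the limma fit over 4 groups. With the exchanged arrays KO light averaged 9.84 ± 0.41 and the difference was 2.33 (SE 0.17).

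Against KO dark, whose Gpnmb averaged 8.18 ± 0.06, KO light was higher by 1.29 (SE 0.26), and by 1.66 (SE 0.17) with the exchanged arrays. The response to light was larger in KO than in WT mice by 1.85 (SE 0.36) as labelled and by 2.21 (SE 0.24) with the exchanged arrays. Gpnmb did not rest on the array with the highest value. When KO light replicate 2 was left out, KO light exceeded WT light by 1.60 (SE 0.17) and KO dark by 0.92 (SE 0.17). In WT mice, which the selection of Gpnmb did not use as a contrast, light-exposed retinae were lower by 0.56 (SE 0.26), which did not pass the test (adjusted p = 0.289, limma with Benjamini-Hochberg adjustment over all genes). This comparison shares its WT light arrays with that of KO light. In the dark, KO and WT differed by 0.12 (SE 0.26, adjusted p = 0.987).

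**Figure D1:**
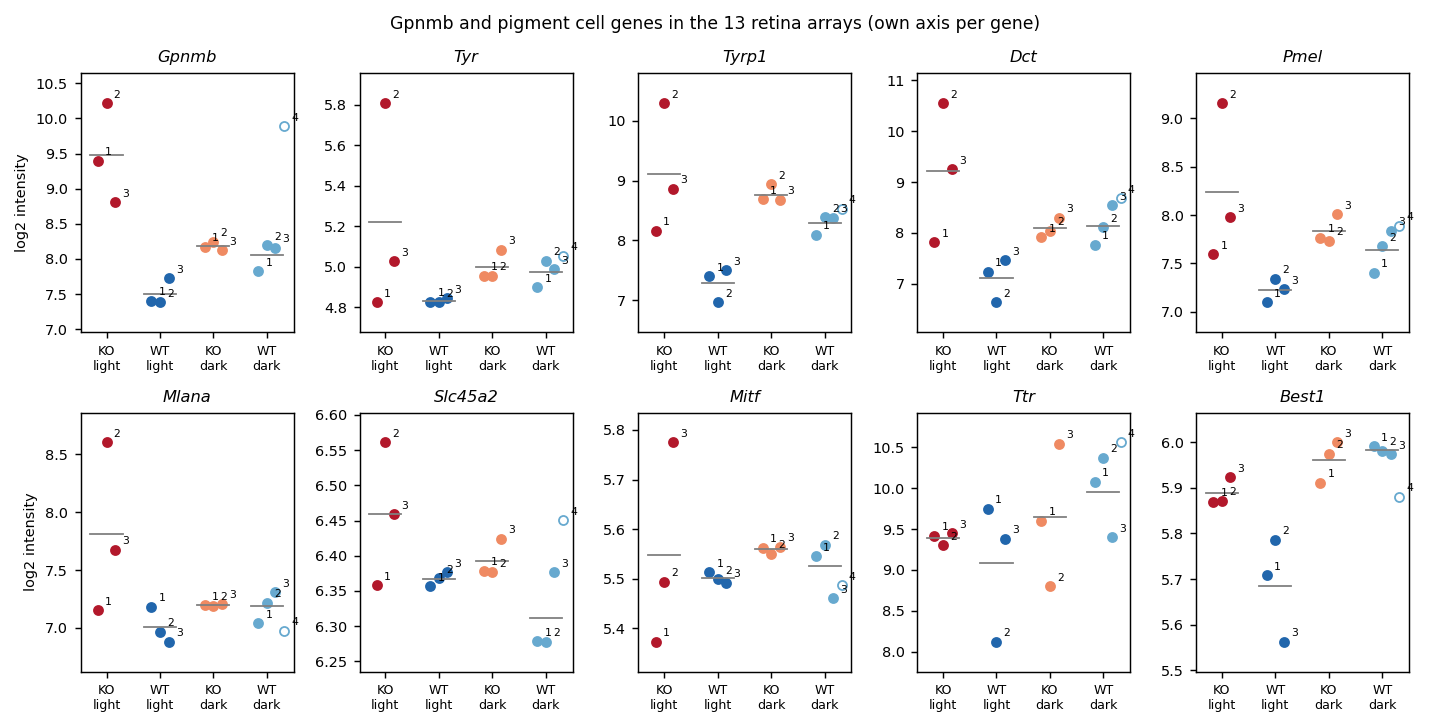
Log2 intensity of the 10 genes in each array, with KO light, WT light, KO dark and WT dark from left to right and each gene on its own axis. Points are arrays with their replicate number, grey bars are means of 3 arrays, and the open point is the array labelled WT dark replicate 4, which is not in the mean. Gpnmb is high in all 3 KO light arrays, whereas Tyr, Tyrp1, Dct, Pmel and Mlana are highest in KO light replicate 2 alone.

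The melanin enzymes differed from Gpnmb in which KO light arrays were high. Tyrp1 had log2 intensities of 8.16, 10.30 and 8.87 in KO light, 7.40, 6.96 and 7.50 in WT light, 8.68, 8.94 and 8.68 in KO dark, and 8.10, 8.39 and 8.38 in WT dark. KO light replicate 2 was the highest of all arrays, and KO light replicate 1 lay below all 3 KO dark arrays. Dct had 7.81, 10.55 and 9.26 in KO light, 7.23, 6.63 and 7.46 in WT light, 7.92, 8.04 and 8.30 in KO dark, and 7.76, 8.10 and 8.55 in WT dark. Its KO light arrays spanned the whole range of the KO dark arrays, with replicates 2 and 3 above and replicate 1 below. Tyr had 4.82, 5.81 and 5.03 in KO light, 4.83, 4.82 and 4.84 in WT light, 4.96, 4.96 and 5.08 in KO dark, and 4.90, 5.03 and 4.99 in WT dark. Outside KO light replicate 2, Tyr was nearly flat at the low end of the intensity scale. The array labelled WT dark replicate 4 had 8.53 for Tyrp1, 8.68 for Dct and 5.05 for Tyr. Each lay slightly above the other WT dark arrays and below KO light replicate 2.

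Among the melanosome genes, Pmel had log2 intensities of 7.59, 9.16 and 7.98 in KO light, 7.10, 7.34 and 7.23 in WT light, 7.77, 7.74 and 8.01 in KO dark, and 7.41, 7.68 and 7.84 in WT dark. Mlana had 7.15, 8.60 and 7.67 in KO light, 7.18, 6.97 and 6.88 in WT light, 7.19, 7.19 and 7.21 in KO dark, and 7.04, 7.22 and 7.31 in WT dark. Both showed the order of the KO light arrays seen for the enzymes, with replicate 2 highest and replicate 1 lowest. Slc45a2 stayed between 6.28 and 6.56 in the 12 arrays, and its highest value was again that of KO light replicate 2. The array labelled WT dark replicate 4 had 7.89 for Pmel, 6.97 for Mlana and 6.45 for Slc45a2. For Mlana it was thus lower than the other WT dark arrays. Probe sets that name Pmel together with other genes, 12 in number, were not used.

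The other 3 members did not share this pattern. Mitf, measured as the mean of its 2 probe sets, stayed between 5.37 and 5.77, and its lowest and highest values were KO light replicates 1 and 3. The same 2 arrays were the extremes of each probe set, at 7.25 and 7.66 for one and at 3.50 and 3.89 for the other. Ttr had log2 intensities of 9.42, 9.30 and 9.45 in KO light, 9.75, 8.12 and 9.38 in WT light, 9.60, 8.80 and 10.55 in KO dark, and 10.08, 10.38 and 9.40 in WT dark, with 10.56 in the array labelled WT dark replicate 4. It varied more within WT light, KO dark and WT dark than between them, and the KO light arrays, replicate 2 included, were close to each other. Best1 had 5.87, 5.87 and 5.92 in KO light, 5.71, 5.79 and 5.56 in WT light, 5.911, 5.975 and 5.999 in KO dark, and 5.99, 5.98 and 5.97 in WT dark. Its WT light arrays were below all others, over a total range of 0.44.

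After light, the KO mean was higher than the WT mean for 10 of 10 members, with a median log2 difference of 0.60 beside -0.01 over all genes. This included Mitf at 0.05 (SE 0.08) and Slc45a2 at 0.09 (SE 0.05). With the exchanged arrays the KO mean was higher for 9 of 10 members, and Mitf was at -0.05 (SE 0.05). The log2 difference of KO light over WT light was 2.10 (SE 0.50) for Dct, 1.82 (SE 0.38) for Tyrp1, 1.02 (SE 0.29) for Pmel, 0.80 (SE 0.25) for Mlana and 0.39 (SE 0.18) for Tyr. The arrays of the groups did not overlap for 5 members (Gpnmb, Tyrp1, Dct, Pmel and Best1), all higher in KO light, against 5.63% of all genes. Called genes, those with an adjusted p below 0.05 and a ratio from 1.2 upwards or from 0.87 downwards, numbered 1 among the members, Gpnmb, beside 0.176% of all genes. Nothing is read from these counts, since they come from the contrast in which Gpnmb was selected. With the exchanged arrays 4 members were called (Gpnmb, Dct, Tyrp1 and Pmel), beside 8.23% of all genes, and the same 5 members did not overlap, beside 13.9%.

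KO light replicate 2 set much of this difference for the melanin genes. Without it, the difference over WT light was 1.43 (SE 0.37) for Dct, 1.23 (SE 0.20) for Tyrp1, 0.56 (SE 0.14) for Pmel, 0.41 (SE 0.14) for Mlana and 0.09 (SE 0.07) for Tyr. With the exchanged arrays and without that array, an alternative chosen after seeing the data, the same differences were 1.14, 1.06, 0.52, 0.06 and 0.11. The WT light arrays lay below both dark groups for Tyrp1, Dct, Tyr and Pmel. In that alternative both remaining arrays of the KO light group had Tyrp1 and Dct levels above those of WT light.

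Within KO mice, light-exposed and dark retinae differed less in the melanin genes. The log2 difference of KO light over KO dark was 1.12 (SE 0.50) for Dct, 0.61 (SE 0.25) for Mlana, 0.41 (SE 0.29) for Pmel, 0.34 (SE 0.38) for Tyrp1 and 0.22 (SE 0.18) for Tyr. Gpnmb was the only member whose arrays did not overlap, beside 6.44% of all genes, and no member was called, beside 0.1%. With the exchanged arrays Gpnmb was called, beside 13.3% of all genes. Nothing is read from these counts either. Without KO light replicate 2, the difference of Tyrp1 was -0.25 (SE 0.20), that of Pmel -0.05 (SE 0.14) and that of Tyr -0.07 (SE 0.07), whereas Gpnmb kept 0.92. The direction of these 3 melanin genes against KO dark was therefore decided by 1 array. The interaction of genotype and light was called for no member, beside 0.0602% of all genes at an adjusted p under 0.05, a count that contains the KO light arrays as well.

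**Figure D2:**
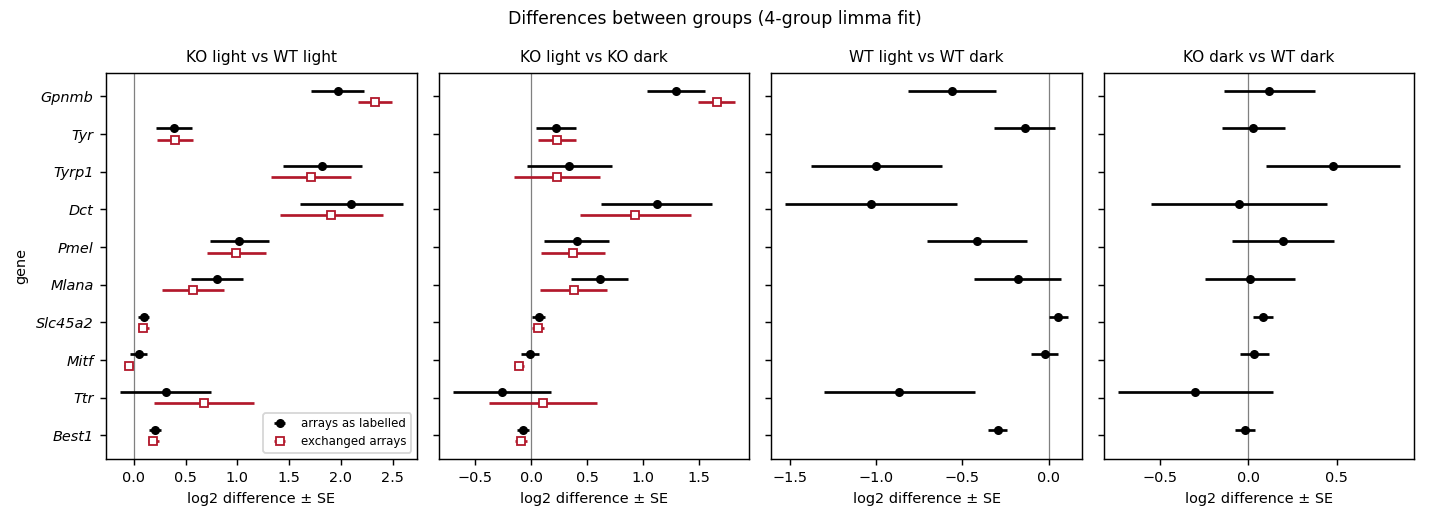
Log2 differences with their standard errors from the limma fit over 4 groups, with KO over WT after light, light over dark in KO, light over dark in WT, and KO over WT in the dark from left to right. Black points follow the labels (3 arrays per group), and red squares show the fit with the exchanged arrays. As labelled, Gpnmb and Dct exceed 1 in both comparisons of KO light, whereas Tyrp1 exceeds 1 only over WT light. With the exchanged arrays Dct is at 0.93 over KO dark.

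In WT mice, light-exposed retinae had a lower mean than dark retinae for 9 of 10 members, with a median log2 difference of -0.36 over the members beside 0.02 over all genes. The difference was -1.03 (SE 0.50) for Dct, -0.9999 (SE 0.38) for Tyrp1, -0.87 (SE 0.44) for Ttr and -0.42 (SE 0.29) for Pmel, and none of these 4 passed the test (adjusted p of 0.314, 0.21, 0.338 and 0.487 in limma). The WT light arrays lay below every WT dark array for 6 members (Gpnmb, Tyr, Tyrp1, Dct, Pmel and Best1), beside 10.7% of all genes. Called was 1 member, beside 0.431% of all genes. This was Best1, which was lower in WT light by 0.30 on the log2 scale (SE 0.06, adjusted p = 0.0478), with 3 of 3 arrays below all WT dark arrays. The call was fragile. It was lost when any 1 of the 9 arrays outside KO light was left out, and the adjusted p ran from 0.00724 to 0.156 over the alternatives. Without KO light replicate 2, whose spread enters the shared variance, the difference of Tyrp1 also passed (adjusted p = 0.0364). In such bulk samples fewer cells of a type and less RNA per cell cannot be told apart.

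In the dark, no member passed the test between PGC-1α KO and WT retinae. Called were 0 of 10 members in limma, beside 0.0752% of all genes, with 0 at an unadjusted p under 0.05 and 0 without moderation of the variances. Tyrp1 had the largest log2 difference, 0.48 (SE 0.38, adjusted p = 0.921), and Slc45a2 the lowest adjusted p, 0.876, at a difference of 0.08 (SE 0.05). The SE of Tyrp1 depended on KO light replicate 2, whose spread enters the shared variance, and was 0.18 without that array. Its adjusted p in limma ran from 0.0913 to 0.999 over the alternatives, and Tyrp1 was called in none of those that left out 1 array. For Tyrp1 the 3 KO dark arrays lay above the 3 WT dark arrays, as they did for 9.26% of all genes, and no other member was free of overlap. The SE of 0.50 for Dct and 0.44 for Ttr leaves differences of that size in these 2 genes undetectable with 3 arrays per group.

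Whether the genes moved together was then followed array by array. The 6 melanin genes (Tyr, Tyrp1, Dct, Pmel, Mlana and Slc45a2) were each centred on their mean over 12 arrays and averaged. This mean was -0.17, 1.34 and 0.39 in KO light, -0.47, -0.64 and -0.44 in WT light, 0.00, 0.05 and 0.13 in KO dark, and -0.24, -0.04 and 0.08 in WT dark. KO light replicate 2 thus stood far above the rest, the 3 WT light arrays were lowest, and KO light replicate 1 was below the KO dark arrays. In that replicate 1, each of the 6 melanin genes was lower than in every KO dark array, while Gpnmb, at 9.40, was above every KO dark array. In the array labelled WT dark replicate 4, Gpnmb was at 9.89 with a melanin mean of 0.11. In that array 5 of the 6 melanin genes were above every other WT dark array. In KO light replicate 1, 3 of the 6 were above every WT light array, and 1 was below every WT dark array of the fit. High Gpnmb therefore occurred over a range of melanin means, from -0.17 to 1.34, and not only where they were highest.

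Across deviations from the group means over 12 arrays, which takes group differences away, the 15 pairs of melanin genes had a median Pearson r of 0.91 (0.81 to 0.97). Without KO light replicate 2 the median was 0.69 (0.35 to 0.88), so that much of the common movement rested on 1 array, and what remained was still positive in all pairs. For Gpnmb and Tyrp1 the deviations had r = 0.73 over 12 arrays (Spearman rho 0.78) and r = -0.11 (rho -0.05) over the 11 arrays without KO light replicate 2. For Gpnmb and the other 5 melanin genes r ran between 0.51 and 0.76 with that array and between -0.53 and -0.17 without it. Without that array KO light held only replicates 1 and 3, whose deviations are equal and opposite by construction. Replicate 1 was higher than replicate 3 in Gpnmb and lower in each melanin gene. This pair entered r of Gpnmb with the melanin genes with a negative sign, and r between melanin genes with a positive sign. Whether Gpnmb and the melanin genes were related outside KO light was not tested. With the exchanged arrays, Gpnmb and Tyrp1 had r = 0.83. These correlations share arrays and are given as descriptions.

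KO light replicate 2 was singled out by a small group of genes. The gap between this array and the next highest of the other 12 arrays exceeded 1 on the log2 scale for 6 of 19937 genes. They were Dcn (gap 1.40), Tyrp1 (1.36), Dct (1.30), Pmel (1.15), Slc24a5 (1.04) and Islr (1.01), followed by Mlana (0.93) and Acta2 (0.81). Slc24a5 is a melanosomal ion exchanger, Dcn encodes decorin of connective tissue, Islr a leucine-rich repeat protein and Acta2 the actin of smooth muscle. Dcn had a log2 intensity of 8.41 in this array and at most 7.01 in any other, and Slc24a5 had 7.55 against at most 6.51. Dcn, Islr and Acta2 are named here because of these gaps, that is, with their values known. Of the 19 other RPE genes some were low and some high in this array, and their centred mean of 0.01 lay inside the range of the other arrays (-0.22 to 0.29). Rpe65 was at 6.14, Rgr at 8.69 and Lrat at 6.24, whereas the 12 other arrays held between 5.53 and 8.09 for Rpe65, between 8.24 and 10.40 for Rgr and between 6.28 and 7.10 for Lrat. Lrat was thus lowest of all arrays in the array with the highest melanin genes. On the same list Kcnj13, a potassium channel of the RPE, was second highest there at 9.36. Sulf1, an extracellular sulfatase, was at 9.705 there but did not single out this array. It was at 9.703 in the array labelled WT dark replicate 4 and at 9.63 in KO light replicate 1. These 5 genes of the list were picked with their values known.

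**Figure D3:**
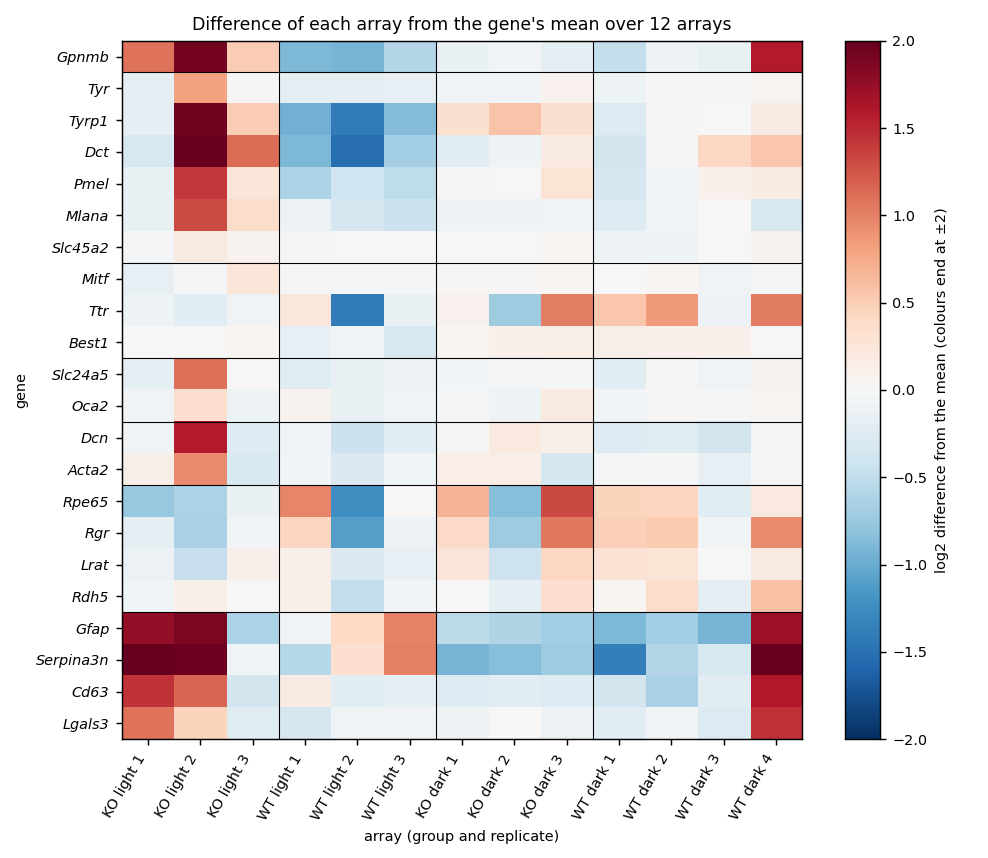
Log2 difference of each array from the mean of the gene over 12 arrays, in colours that end at ±2. Columns are arrays by group, from KO light to WT dark, and rows are the 10 members followed by melanosome genes (Slc24a5, Oca2), connective tissue and smooth muscle genes (Dcn, Acta2), RPE genes (Rpe65, Rgr, Lrat, Rdh5) and genes of reactive glia and phagocytes (Gfap, Serpina3n, Cd63, Lgals3). Melanin genes with Slc24a5, Dcn and Acta2 are high in KO light replicate 2, and Ttr varies with the RPE genes. Gpnmb is high in KO light replicates 1 and 2 and WT dark replicate 4, where Gfap and Serpina3n are high. To a lesser degree it is high in KO light replicate 3. There Gfap is at the level of the dark arrays of the fit, and Serpina3n is slightly above them.

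Ttr varied with several genes of the RPE. Its deviations from the group means over 12 arrays had r = 0.96 with Rgr, an opsin of the RPE and Müller glia, r = 0.94 with Rpe65, the isomerase of the visual cycle, r = 0.93 with Rdh5, a retinol dehydrogenase, and r = 0.78 with Lrat, the lecithin retinol acyltransferase. With the 6 melanin genes r ran between -0.09 (Slc45a2) and 0.11 (Dct), with Best1 it was -0.25 and with Oca2 it was 0.48. Over the 11 arrays without KO light replicate 2, r was 0.98 with Rgr, 0.94 with Rpe65 and 0.87 with Oca2. With the melanin genes it then ran between -0.07 (Pmel and Slc45a2) and 0.36 (Tyr), so that their relation to Ttr depended on that array. Rpe65 showed the spread within groups seen for Ttr, with 6.02, 6.14 and 6.64 in KO light, 7.75, 5.53 and 6.76 in WT light, 7.44, 5.92 and 8.09 in KO dark, and 7.21, 7.20 and 6.52 in WT dark. WT light replicate 2 and KO dark replicate 2 were low in both genes, and KO dark replicate 3 was high in both. The part that the amount of RPE in each sample had in these values was not tested. Ttr was added to the genes compared by likeness after its values were seen, and Rdh5 was named likewise.

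Markers of reactive Müller glia were high in some of the arrays with high Gpnmb. Gfap, the intermediate filament of reactive glia, had log2 intensities of 9.75, 9.88 and 7.37 in KO light, 7.91, 8.39 and 8.98 in WT light, 7.47, 7.39 and 7.30 in KO dark, 7.09, 7.31 and 7.07 in WT dark replicates 1 to 3 and 9.71 in replicate 4. KO light replicates 1 and 2 and WT dark replicate 4 were high in Gfap, whereas KO light replicate 3 was at the level of the dark arrays. The deviations of Gpnmb had r = 0.82 with Gfap and 0.76 with Serpina3n, a secreted protease inhibitor of reactive glia, and without KO light replicate 2 r was 0.84 and 0.90. These values rested on KO light replicate 3, which was the lowest KO light array in Gpnmb, Gfap and Serpina3n. Without that array, an alternative chosen after seeing the data, r was 0.47 with Gfap and 0.40 with Serpina3n over 11 arrays, and with the exchanged arrays it was 0.45 and 0.41 over 12. The centred mean of 11 reactive Müller glia genes was 1.44, 1.199 and -0.24 in KO light, -0.24, 0.12 and 0.47 in WT light, between -0.52 and -0.42 in KO dark, between -0.64 and -0.33 in WT dark and 1.58 in the array labelled WT dark replicate 4. In WT light, however, Gpnmb was lowest of all groups while this mean was higher than in the dark arrays. The order of WT light and WT dark was thus opposite for Gpnmb and for this mean.

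Phagocyte markers were high in some of the same arrays. The centred mean of 26 microglia and phagocyte genes was 0.35, 0.28 and -0.10 in KO light, between -0.07 and 0.04 in WT light, between -0.10 and -0.04 in KO dark, between -0.13 and -0.06 in WT dark and 0.42 in the array labelled WT dark replicate 4. Lgals3, the galectin of activated phagocytes, had log2 intensities of 9.01, 8.37 and 7.68 in KO light and 9.39 in the array labelled WT dark replicate 4, against at most 7.92 elsewhere. Cd68, a lysosomal protein of macrophages, had 8.42, 8.03 and 7.51 in KO light and 8.71 in the array labelled WT dark replicate 4, against at most 7.67 elsewhere. Aif1, which marks microglia, stayed between 5.14 and 5.48 in the 13 arrays. KO light replicate 3 differed from the other KO light arrays. Its Gpnmb of 8.81 was above all dark arrays of the fit, and its melanin mean of 0.39 was second highest. Its Gfap and its phagocyte mean were within the range of those dark arrays. Its mean of the 11 reactive Müller glia genes, -0.24, was above theirs (-0.64 to -0.33). Serpina3n, at 9.53, was also above those dark arrays (at most 9.27). The part of these cell types in the level of Gpnmb was not tested.

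**Figure D4:**
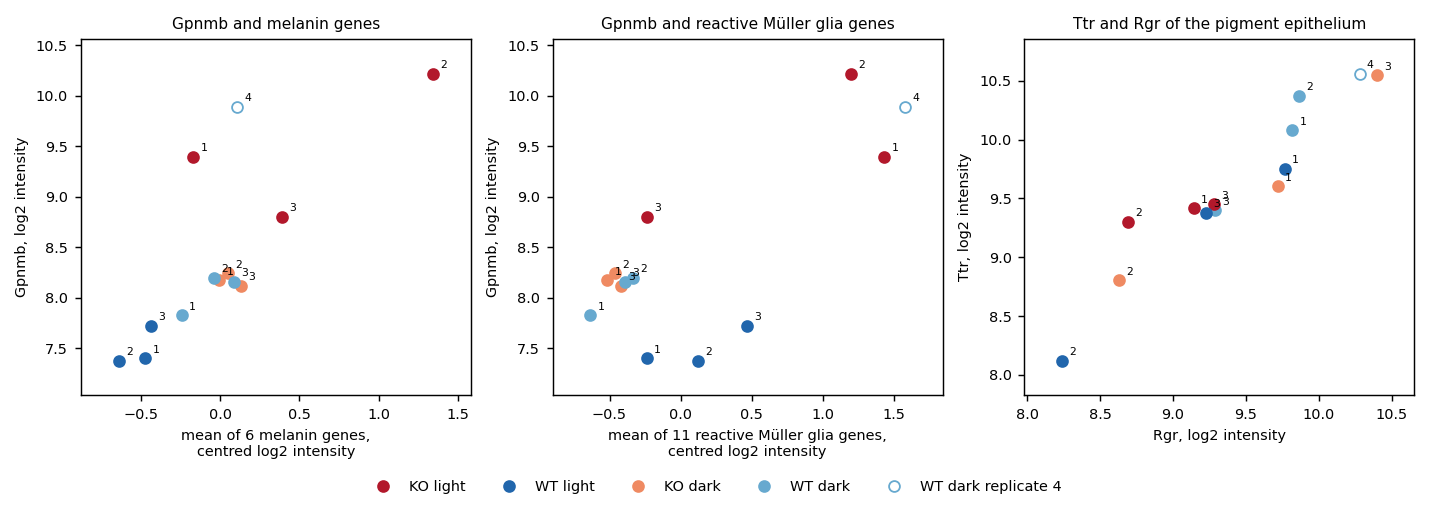
Left and centre, log2 intensity of Gpnmb against the centred log2 mean of 6 melanin genes and of 11 reactive Müller glia genes. Right, log2 intensity of Ttr against that of Rgr. Each point is 1 of 13 arrays with its replicate number, and the open point is the array labelled WT dark replicate 4. Gpnmb is high in KO light replicate 1 and in the open point at melanin means of -0.17 and 0.11, and Ttr and Rgr lie along 1 line across the groups.

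The genes most like Gpnmb over the 13 arrays, among 14893 genes with a mean log2 intensity of at least 6, were Pdlim4 (Pearson r = 0.97), Gng12 (0.96), Igfbp7 (0.96), Ifitm2 (0.95) and Bace2 (0.95). These 5 had r between 0.92 and 0.96 without KO light replicate 2. Those most like the mean of the 6 melanin genes were Islr (0.97), Sfrp1 (0.95), Sytl2 (0.94), Fhdc1 (0.94) and Bgn (0.93). Here r was between 0.77 and 0.90 without that array. No gene stood on both lists. For Ttr they were Rgr (0.95), Stra6 (0.94), Rdh5 (0.92), Col8a1 (0.91) and Pon1 (0.87).

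Related genes outside the members were counted in the comparisons without KO light. Of 131 genes on 9 lists of markers (other melanocyte and melanosome genes, other RPE genes, choroid, sclera and vessel wall, ciliary epithelium, lens, microglia and phagocytes, lysosome and MiT/TFE factors, reactive Müller glia and neural retina), 0 were called in KO dark vs WT dark by limma, beside 0.0752% of all genes. At an unadjusted p under 0.05 there were 6, beside 1416 of 19937 genes, and 0 were called without moderation of the variances. In WT light vs WT dark 1 was called, beside 0.431% of all genes. This was Krt18, a keratin of simple epithelia on the RPE list, higher in WT light by 0.90 (SE 0.16, adjusted p = 0.0426 in limma). Krt18 had 9.92, 9.91 and 10.11 in WT light, 9.95, 9.89 and 9.87 in KO dark, and 8.96, 9.23 and 9.05 in WT dark replicates 1 to 3. It was thus about as high in KO dark as in WT light. With the exchanged arrays Krt18 was also called in KO dark vs WT dark, 1 of 131 genes beside 175 of 19937. In WT light vs WT dark 0 of the 131 genes were called without moderation, and 0 with the replicate number as a block. With the exchanged arrays 8 were called higher there and 2 lower, beside 4.41% of all genes. Of the 17 other melanocyte and melanosome genes, 11 had a lower mean in WT light, with a median difference of -0.02 beside -0.30 for the 6 melanin genes. Of the 19 other RPE genes 9 were lower, with a median of 0.01. Of the 11 reactive Müller glia genes all had a higher mean in WT light, with a median of 0.65. As labelled none was called, with 3 at an unadjusted p under 0.05 beside 17.1% of all genes, and with the exchanged arrays 5 were called, beside 4.41% of all genes. Oca2, a membrane protein of melanosomes, stayed between 5.73 and 6.22 in the 13 arrays and was highest in KO light replicate 2.

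The lens marker Cryaa did not follow the melanin genes either, and the ciliary marker Optc did so only in part. Cryaa, the alpha crystallin of the lens, had log2 intensities of 11.06, 9.02 and 8.08 in KO light, 11.03, 7.49 and 9.27 in WT light, 10.70, 10.18 and 8.41 in KO dark, and 9.59, 9.19 and 7.80 in WT dark. Its highest arrays, KO light replicate 1 and WT light replicate 1, had low melanin means. Optc, an extracellular protein of the ciliary epithelium, had 9.26, 9.61 and 9.75 in KO light, 9.11, 9.12 and 8.53 in WT light, 9.75, 9.77 and 9.55 in KO dark, and 9.66, 9.73 and 9.66 in WT dark. The WT light arrays were the lowest for Optc as for Tyrp1 and Dct, and KO light replicate 2 was not raised. Col1a1, a collagen of sclera and choroid, stayed between 7.69 and 7.97 in the 13 arrays. The centred mean of the 10 choroid, sclera and vessel wall genes was 0.37 in KO light replicate 2 and between -0.08 and 0.05 in the other arrays. How much carried-over tissue each sample held was not measured.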

How the data were processed

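The data were probe set values of 13 retina arrays in a series matrix. The deposited values are intensities on a linear scale, normalized between arrays by the authors with Partek and Bioconductor. Versions, summarization, build and filters were not given in the sources used here. Probe sets had no background value, so dim ones such as those of Tyr and Mitf were kept. Array medians lay between 141.1 and 145.7.

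Values were taken to log2. Probe sets with exactly 1 symbol (21640 of 34760) were averaged per gene. With limma 3.58.1 (R 4.3.3) a model of 4 groups was fitted to 12 arrays with empirical Bayes moderation, followed by Benjamini-Hochberg adjustment over 19937 genes. Calls required an adjusted p below 0.05 together with a ratio from 1.2 upwards or 0.87 downwards, as in the study. WT dark replicate 4 was left out because the study describes 3 arrays per group. An exact permutation test of 3 against 3 arrays cannot go below p = 0.1 and was not used. The fit was tested on simulated data. Precision is limited by the number of arrays. Nothing says beyond the labels' "biological replicate" and 1 mouse per array how the mice were related.

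The members and marker lists were chosen with earlier results of these data known. Named genes are the members, Ppargc1a, called genes and defining markers of the lists, and the 5 genes most like Gpnmb and the melanin mean. Dcn, Acta2, Cd63, Rdh5, Col8a1, Pon1 and Stra6 were named after their values were seen, as was Islr as a gene of KO light replicate 2. Alternatives were other arrays, a replicate block, no moderation, quantile normalization, an offset of 32, a minimum mean log2 of 6 and other handling of probe sets. Coordinates and promoters come from RefSeq for GRCm38.p6.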

Additional observations from a re-analysis of the deposited data

Results flagged for a closer look

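Among the 4 arrays labelled WT dark, Best1 in replicate 4 (5.88) lay apart from the others (5.97 to 5.99), with a gap of 0.839 of the whole range. Chance flags about 1 in 20 groups of this size, and the ratio was computed for each of the 10 members.

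Gpnmb in WT dark replicate 4 was at 9.89, above the 7.83 to 8.20 of the other arrays labelled WT dark. This array was in no main comparison.

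The light response of Gpnmb in KO mice exceeded that in WT mice by 1.85 on the log2 scale. Every KO light array was above every KO dark array and every WT light array below every WT dark array. Gpnmb was selected for its level in KO light, so this difference is a description with no p-value, and nothing is read from the counts of calls that include it.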

How the results depend on the processing

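In WT light vs WT dark, where 1 member was called, 0 were called with WT dark replicate 4 added, without moderation, among genes with a mean log2 of at least 6 (which drops Best1) and with an offset of 32 (which brings the ratio of Best1 inside the limit), and 3 with the 6 arrays fitted alone, where 680 of all genes were called. Leaving out 1 array in turn gave 0 to 2 members and 9 to 857 of all genes, and leaving out KO light replicate 2 with the exchanged arrays gave 5 members and 983 of all genes. In KO light vs WT light, where 1 was called, 4 were called with the exchanged arrays, and 0 with WT dark replicate 4 added, without moderation and with the 6 arrays alone. Leaving out 1 array in turn gave 0 to 4, and 4 with the exchanged arrays and without KO light replicate 2. In KO light vs KO dark and in the interaction, where 0 were called, the exchanged arrays gave 1 (Gpnmb in both), with or without KO light replicate 2, and leaving out 1 array gave 0 to 1. The median correlation of melanin pairs ran from 0.685 without KO light replicate 2 to 0.938 when 1 array was left out, and was 0.807 without KO light replicate 1.

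In KO dark vs WT dark no direction was called. With WT dark replicate 4 added the difference was -0.34 for Gpnmb and 0.0048 for Best1, opposite to the main values. Leaving out 1 array in turn gave -0.016 to 0.055 for Tyr, -0.24 to 0.15 for Dct, -0.064 to 0.070 for Mlana, -0.75 to 0.12 for Ttr and -0.039 to 0.0048 for Best1.

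With the replicate number as a block, 0 members were called in WT light vs WT dark (Best1 had an adjusted p of 0.0873), and no other count of members moved. The numbers only name the mice. Deviations of same-numbered arrays correlated between -0.19 and 0.22 over 18 pairs, 3 of them above 0.1, and 3 arrays correlated best with their own number.

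Counts over all genes moved more. KO light vs KO dark had 20 calls as labelled, 2653 with the exchanged arrays and 1981 without KO light replicate 3. Dim probe sets limit what Tyr, Best1 and Mitf can show, since they had no background value against which to judge them.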
